A study of Homo sapiens with 4 samples.

Results

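The cytosolic heat shock chaperones described here are 10 genes chosen by name, HSF1, HSPA1A, HSPA1B, HSPA8, HSPH1, HSP90AA1, HSP90AB1, HSPB1, DNAJB1 and BAG3, out of the 58735 genes in the deposited count table. All 10 were found by Ensembl identifier and all averaged 10 counts or more in both cell lines, so that none was lost to a filter on low counts. MDA-MB-231 and SUM159 are human triple-negative breast cancer cell lines, and each was exposed for 72 h either to the anthelmintic mebendazole (MBZ) at 1 μM or to its solvent DMSO. mRNA was sequenced from 4 libraries, 1 for each line and treatment, and total counts ranged from 17143139 to 24897586. The MBZ and DMSO groups of a line therefore have no replicate, and the error given in parentheses for a log2 ratio within a line is a 95% interval (Clopper-Pearson) from the reads of both libraries, which covers counting error only. Of the receptors whose absence defines the subtype, PGR was at 0 counts in every library and ESR1 at 0 to 18, while ERBB2 had 1216 to 1996 counts.

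Heat shock chaperones bind unfolded or partly folded proteins in the cytosol and help them fold, hold them in solution or pass them to degradation. Hsp70 proteins work with J-domain partners that deliver substrates and with nucleotide exchange factors that release them, and many kinases and hormone receptors move on from Hsp70 to Hsp90 for their last folding steps. HSF1 is the transcription factor that raises the inducible chaperone genes when unfolded proteins accumulate, by binding repeats of a GAA unit in alternating orientation, while HSPA8 and HSP90AB1 are the constitutive forms that cells make in large amounts without stress. Tumour cells commonly carry high levels of these proteins. MBZ binds tubulin, itself a protein folded with the help of chaperones.

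The stretches below are shown because they carry the HSF1-type element next to genes whose log2 ratios of MBZ to DMSO took either sign. They are RefSeq promoter sequences on GRCh38, read along the strand of the gene, and capitals mark either the pair of opposed units GAANNTTC, which reads alike on both strands, or a run of 3 alternating units, TTC, GAA and TTC with any 2 bases between them, which was searched on both strands and always holds the shorter element. HSPA1A and HSPA1B, 2 neighbouring inducible Hsp70 genes, are followed by HSP90AA1, the inducible Hsp90, by HSPB1, a small heat shock protein, and by HSPA6, an Hsp70 gene known for being expressed almost exclusively under stress. The last 3, HSPA8, HSP90AB1 and DNAJB1, are kept short because annotated exons overlap the wider stretch around the element, and for HSPA8 an exon of its own also overlaps the bases printed.
HSPA1A (chr6:31815392-31815489, plus strand): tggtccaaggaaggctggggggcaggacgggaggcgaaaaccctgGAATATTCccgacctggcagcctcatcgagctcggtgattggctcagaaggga
HSPA1B (chr6:31827588-31827685, plus strand): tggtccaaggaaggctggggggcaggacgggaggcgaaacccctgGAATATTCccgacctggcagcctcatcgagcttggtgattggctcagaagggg
HSP90AA1 (chr14:102087075-102087177, minus strand): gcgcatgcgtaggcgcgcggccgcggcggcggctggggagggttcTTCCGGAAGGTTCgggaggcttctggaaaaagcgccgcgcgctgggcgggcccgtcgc
HSPB1 (chr7:76302446-76302543, plus strand): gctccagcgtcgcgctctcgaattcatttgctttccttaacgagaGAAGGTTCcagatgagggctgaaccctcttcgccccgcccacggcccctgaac
HSPA6 (chr1:161524421-161524523, plus strand): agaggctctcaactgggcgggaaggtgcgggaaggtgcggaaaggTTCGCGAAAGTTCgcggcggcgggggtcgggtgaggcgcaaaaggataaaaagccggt
HSPA8 (chr11:123062171-123062199, minus strand): cgggccccTTCTGGAAGGTTCtaagatag
HSP90AB1 (chr6:44247823-44247851, plus strand): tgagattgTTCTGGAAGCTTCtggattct
DNAJB1 (chr19:14518426-14518455, minus strand): ggcgggctctgGAAGCTTCcgccggacggg

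Of the 9 chaperone genes with an entry in the promoter table, 7 held GAANNTTC within 250 bases upstream of at least 1 of their 14 listed starts, whereas 5.78% of all 35116 promoter windows held it. The run of 3 alternating units was found for 3 of them, HSPA8, HSP90AA1 and HSP90AB1, against 0.441% of all windows. Genes with several starts had more windows in which to hold a match. HSPA1A and HSPA1B carried the element 106 and 105 bases before the start, each with 1 TATAAA box, which 10.7% of all windows hold. The printed run of HSP90AA1 began 88 bases before its listed start, and that of HSP90AB1 112 bases before. The letters of neither element were found in the windows of BAG3 and HSPH1, and HSF1 had no entry. These matches describe the sequence only.

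The largest part of the chaperone reads came from the constitutive forms. Together the 10 genes held 0.655% of all counts in the MDA-MB-231 line with DMSO (Clopper-Pearson interval 0.652% to 0.658%) and 0.671% with MBZ (0.667% to 0.675%). In the SUM159 line they held 0.725% with DMSO (0.721% to 0.729%) and 0.681% with MBZ (0.677% to 0.684%). Such shares rest on total counts, and for MDA-MB-231 the direction turned with TMM scaling, under which the 10 genes summed to 7185 CPM with DMSO and 6117 with MBZ. For SUM159 the sum was lower with MBZ on both scales, at 8046 and 6132 CPM after TMM scaling.

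Levels can be compared between genes only per length, and were expressed as CPM, the count scaled to library size, per kb of annotated exon, with the 4 libraries scaled together. HSP90AB1 was highest in every library, at 677 CPM per kb in the MDA-MB-231 line with DMSO and 528 with MBZ, and at 1122 and 771 in the SUM159 line. HSPA8 was next, between 432 and 557 CPM per kb in all 4 libraries. HSP90AA1 came next in the MDA-MB-231 line, at 219 CPM per kb with DMSO, and then HSPB1 at 192, while in the SUM159 line with DMSO HSPB1, at 485, stood above HSP90AA1, at 131. BAG3 followed in every library, at 53.0 to 93.0 CPM per kb. DNAJB1, HSF1, HSPA1B, HSPH1 and HSPA1A lay between 8.27 and 36.1 CPM per kb, and HSPA1A was lowest in all 4 libraries. Of the transcript windows as long as a read, 69.6% for HSPA1A and 70.1% for HSPA1B occur in other genes. Any reads left unassigned for that reason would make the levels of HSPA1A and HSPA1B too low. How many were left out was not tested, so the places of HSPA1A and HSPA1B in the order are uncertain. Neighbours in the order differed beyond the Poisson interval of their counts in the MDA-MB-231 line with DMSO, whereas DNAJB1, HSPA1B, HSF1 and HSPH1 had overlapping neighbour intervals in the MDA-MB-231 line with MBZ, HSPH1 and HSPA1A in the SUM159 line with DMSO, and HSPA1B and HSF1 in the SUM159 line with MBZ. The order also rests on the length used. Per kb of the canonical transcript alone, HSPA8 stood above HSP90AB1 in 3 of 4 libraries, at 1155 against 789 CPM per kb in the MDA-MB-231 line with DMSO, and DNAJB1, at 132, stood above BAG3, at 99.4. HSPB1, at 401, then also stood above HSP90AA1, at 346, in that library, as in both SUM159 libraries.

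**Figure D1:**
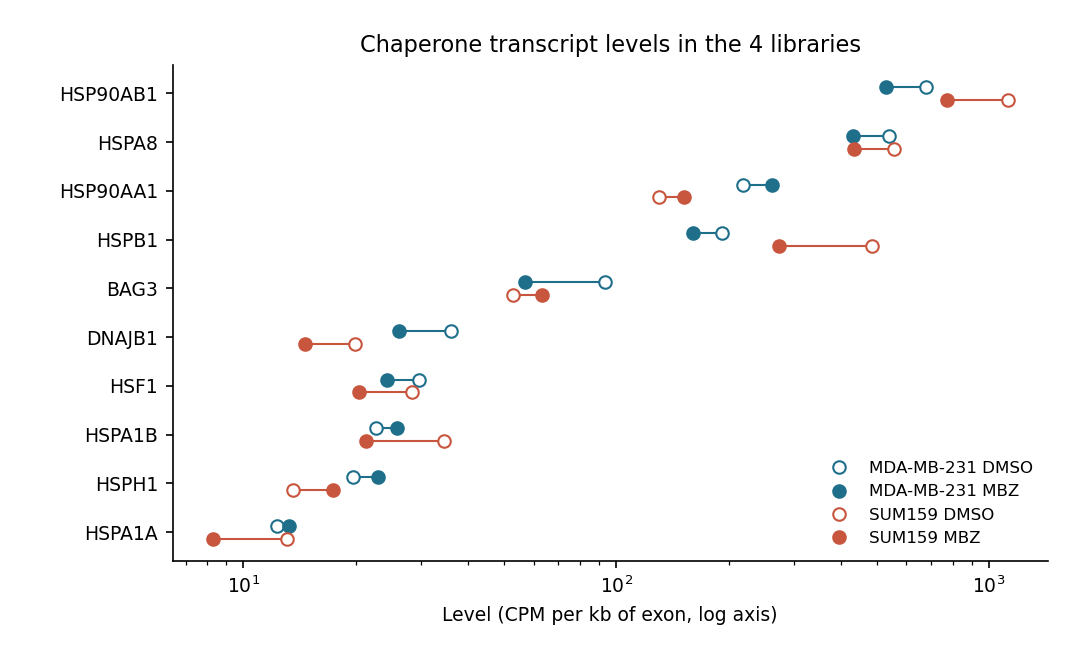
Level of each chaperone gene in CPM per kb of exon on a log axis, with open circles for DMSO, filled circles for MBZ and a line joining the 2 libraries of a cell line. HSP90AB1 and HSPA8 lie above the other genes in every library, and HSPB1 in the SUM159 line with DMSO, at 485, comes closest to HSPA8, at 557.

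The main question was whether MBZ treatment raised or lowered these transcripts. Given as the log2 ratio of MBZ to DMSO after TMM scaling within each line, no gene of the 10 was at least 1.5-fold higher in either line, beside 18.3% of all genes in MDA-MB-231 and 21.5% in the SUM159 line. BAG3 was at least 1.5-fold lower in the MDA-MB-231 line, 1 of 10 genes, beside 15.8% of all genes. HSPA1A, HSPA1B and HSPB1 were at least 1.5-fold lower in the SUM159 line, 3 of 10 genes, beside 21.7% of all genes. The median log2 ratio of the 10 was -0.29 for MDA-MB-231, where that of all 15142 genes compared was -0.018, and -0.46 for SUM159, where that of all 15674 genes was -0.034. With scaling by total counts alone, which lifts the median of all genes by 0.27 and 0.30 on the log2 scale, none of the 10 was 1.5-fold lower in either line and HSPH1 was 1.5-fold higher in the SUM159 line, at 0.66. Under that scaling 7.57% of all genes were lower in MDA-MB-231 and 12.8% in SUM159, where 32.8% were higher. Under it the counting intervals of HSF1 and HSPB1 in MDA-MB-231 came to include 0, and that of HSPA1A came to exclude it. The log2 ratio of each of the 10 kept its sign under that scaling, under DESeq2 size factors and under TMM over the 4 libraries.

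**Figure D2:**
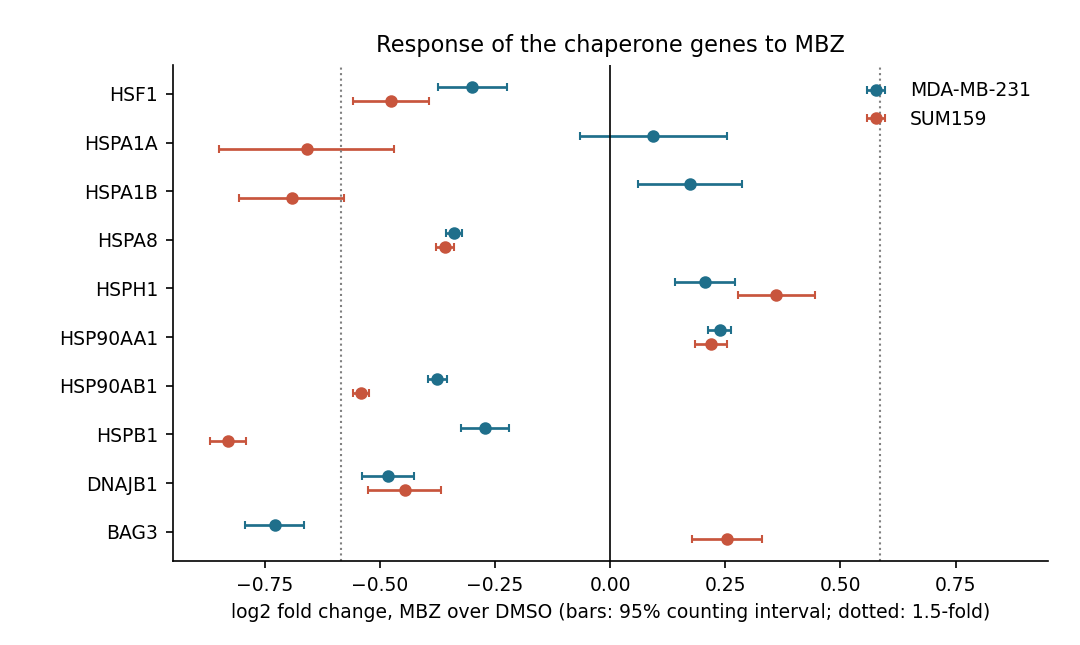
log2 fold change of MBZ over DMSO for each chaperone gene in both lines, with 95% counting intervals as bars and dotted lines at 1.5-fold. HSP90AA1 and HSPH1 lie above 0 in both lines, HSF1, HSPA8, HSP90AB1, HSPB1 and DNAJB1 below 0 in both, and BAG3 at -0.73 in the MDA-MB-231 line but 0.25 in the SUM159 line.

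HSF1 (ENSG00000185122, chromosome 8, 13 exons), the factor that drives the heat shock response, was measured at 160 CPM with DMSO and 130 CPM with MBZ in the MDA-MB-231 line, from 3640 and 2449 counts. Its log2 fold change was -0.30 (interval -0.37 to -0.22). The SUM159 line had 148 and 107 CPM, from 2497 and 2236 counts, and the log2 ratio was -0.48 (-0.56 to -0.39). HSF1 transcript was thus lower with MBZ in both lines after TMM scaling, by less than 1.5-fold, whereas scaling by total counts gave -0.033 for MDA-MB-231, with an interval of -0.11 to 0.041 that includes 0. The activity of HSF1 is set largely by its release from chaperones, its trimerisation and its phosphorylation, none of which an mRNA level measures. Exons of HSF1 share 137 bases with DGAT1 on the opposite strand.

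The inducible Hsp70 genes HSPA1A (ENSG00000204389, chromosome 6 from 31815543 to 31817946) and HSPA1B (ENSG00000204388, chromosome 6 from 31827738 to 31830254) have 1 exon each and encode nearly the same protein. HSPA1A had 686 counts in the DMSO library and 606 in the MBZ library of the MDA-MB-231 line, or 30.2 and 32.2 CPM, and the log2 ratio was 0.094 (-0.066 to 0.25), an interval that includes 0, while total counts gave 0.36 (0.20 to 0.52). The SUM159 line had 520 and 410 counts, or 30.9 and 19.5 CPM, and the log2 ratio was -0.66 (-0.85 to -0.47). HSPA1B also had a log2 ratio above 0 in MDA-MB-231 and below 0 in SUM159. Its counts were 1328 and 1239 in the MDA-MB-231 line, or 58.5 and 65.9 CPM, and the log2 ratio was 0.17 (0.060 to 0.29). They were 1439 and 1109 in the SUM159 line, or 85.4 and 52.8 CPM, and the log2 ratio was -0.69 (-0.81 to -0.58). The 2 genes cannot be fully separated, because 69.6% of the 150-base windows of the HSPA1A transcript occur unaltered in HSPA1B, and a read of that length from such a window fits both. A same-strand lncRNA, listed at 0 counts in every library, also shares 920 exonic bases with HSPA1B, where union counting leaves reads ambiguous. Summed into 1 gene, they gave a log2 ratio of 0.15 for MDA-MB-231 and -0.68 for SUM159, so the sum took the same direction as HSPA1B in each line.

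HSPA8 (ENSG00000109971, chromosome 11 from 123057489 to 123063230, 9 exons), the constitutive Hsp70, was lower with MBZ in both lines. It had 60781 counts in the DMSO library and 39775 in the MBZ library of the MDA-MB-231 line, or 2677 and 2116 CPM, and the log2 ratio was -0.34 (-0.36 to -0.32). The SUM159 line gave 44706 and 43409 counts, or 2653 and 2069 CPM, and the log2 ratio was -0.36 (-0.38 to -0.34). The 2 fold changes differed by -0.020, with a counting interval of -0.046 to 0.0069 that includes 0. HSPA8 exons overlap the snoRNA genes SNORD14C and SNORD14D, both listed at 0 counts, and share 555 bases with a lncRNA on the opposite strand.

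HSPH1 (ENSG00000120694, chromosome 13 from 31134973 to 31162388, 18 exons), an Hsp110 that acts as nucleotide exchange factor for Hsp70, was higher with MBZ in both lines. It went from 3834 to 3661 counts in the MDA-MB-231 line, which after scaling to the smaller MBZ library is 169 and 195 CPM, and the log2 ratio was 0.21 (0.14 to 0.27). In the SUM159 line it went from 1883 to 3010 counts, or from 112 to 143 CPM, and the log2 ratio was 0.36 (0.28 to 0.44).

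The Hsp90 forms differed in direction in both lines. HSP90AA1 (ENSG00000080824, chromosome 14 from 102080742 to 102139699), the inducible alpha form, had 25968 counts in the DMSO library and 25351 in the MBZ library of the MDA-MB-231 line, or 1144 and 1349 CPM, and the log2 ratio was 0.24 (0.21 to 0.26). The SUM159 line had 11019 and 15967 counts, or 654 and 761 CPM, and the log2 ratio was 0.22 (0.18 to 0.25). HSP90AB1 (ENSG00000096384, chromosome 6 from 44246166 to 44253888), the constitutive beta form, had 46868 and 29905 counts in the MDA-MB-231 line, or 2064 and 1591 CPM, and the log2 ratio was -0.38 (-0.40 to -0.35). It had 55399 and 47382 counts in the SUM159 line, or 3287 and 2258 CPM, and the log2 ratio was -0.54 (-0.56 to -0.52). HSP90AA1 was higher and HSP90AB1 lower with MBZ in each line, although neither passed 1.5-fold. Exons of HSP90AA1 share 197 bases with WDR20 on the opposite strand.

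A ratio of 2 genes within a library does not depend on the scaling, and the ratios given here were chosen after the values were seen. Since gene lengths differ, the change of a ratio can be read but not its size. HSP90AA1 reads per HSP90AB1 read went from 0.554 (interval 0.546 to 0.563) to 0.848 (0.834 to 0.862) in the MDA-MB-231 line, a 1.53-fold change. In the SUM159 line the ratio went from 0.199 (0.195 to 0.203) to 0.337 (0.331 to 0.343), a 1.69-fold change. The alpha form thus gained on the beta form in both lines, and both MDA-MB-231 libraries lay above both SUM159 libraries. For Hsp70, reads of HSPA1A and HSPA1B together per HSPA8 read went from 0.0331 (0.0317 to 0.0346) to 0.0464 (0.0442 to 0.0486) in the MDA-MB-231 line and from 0.0438 (0.0419 to 0.0458) to 0.0350 (0.0332 to 0.0368) in the SUM159 line. The inducible share of Hsp70 reads was larger with MBZ in the MDA-MB-231 line and smaller in the SUM159 line.

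**Figure D3:**
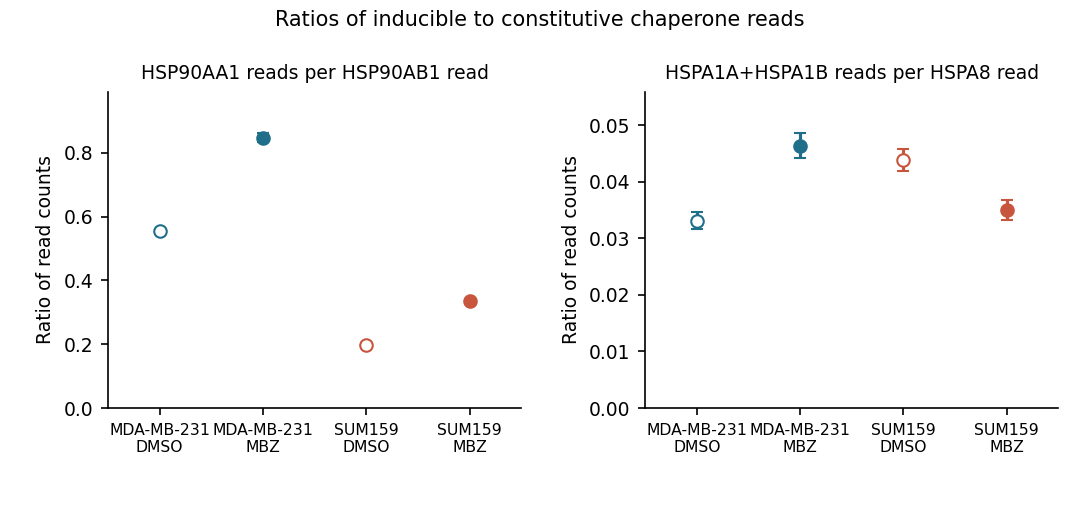
Ratio of read counts within each library, with 95% counting intervals as bars and open circles for DMSO. HSP90AA1 per HSP90AB1 is higher with MBZ in both lines, at 0.848 against 0.554 and at 0.337 against 0.199, whereas HSPA1A and HSPA1B per HSPA8 goes up in the MDA-MB-231 line and down in the SUM159 line.

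HSPB1 (ENSG00000106211, chromosome 7 from 76302673 to 76304295, 3 exons), the small heat shock protein Hsp27 that keeps unfolded proteins from aggregating and binds actin, had the lowest fold change of the 10 in the SUM159 line. There it went from 13037 to 9129 counts, or from 774 to 435 CPM, and the log2 ratio was -0.83 (-0.87 to -0.79). In the MDA-MB-231 line it went from 7248 to 4968 counts, or from 319 to 264 CPM, and the log2 ratio was -0.27 (-0.32 to -0.22), which was -0.0065 with scaling by total counts. HSPB1 was lower in both lines after TMM scaling, and by 0.56 more on the log2 scale in the SUM159 line (interval of SUM159 minus MDA-MB-231 from -0.62 to -0.49), a difference that could not be tested without replicates.

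DNAJB1 (ENSG00000132002, chromosome 19 from 14514769 to 14560391, 3 exons in its canonical transcript), a J-domain partner of Hsp70, had 6874 counts in the DMSO library and 4072 in the MBZ library of the MDA-MB-231 line, or 303 and 217 CPM. Its log2 fold change was -0.48 (interval -0.54 to -0.43). The SUM159 line had 2700 and 2468 counts, or 160 and 118 CPM, and the log2 ratio was -0.45 (-0.53 to -0.37). DNAJB1 was lower in both lines, and SUM159 minus MDA-MB-231 was 0.037 with a counting interval of -0.060 to 0.13 that includes 0. Its exons share 525 bases with TECR on the opposite strand, which had 1956 to 7189 counts.

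BAG3 (ENSG00000151929, chromosome 10 from 119651380 to 119677819, 4 exons), which exchanges the nucleotide of Hsp70 and links it with small heat shock proteins and autophagy, went in opposite directions. In the MDA-MB-231 line it had 5919 counts with DMSO and 2958 with MBZ, or 261 and 157 CPM, and the log2 ratio was -0.73 (-0.79 to -0.66). The SUM159 line had 2401 and 3564 counts, or 142 and 170 CPM, and the log2 ratio was 0.25 (0.18 to 0.33). Without MBZ the BAG3 level was higher in the MDA-MB-231 line, at 93.0 against 53.0 CPM per kb, and with MBZ it was lower there, at 56.9 against 63.1.

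**Figure D4:**
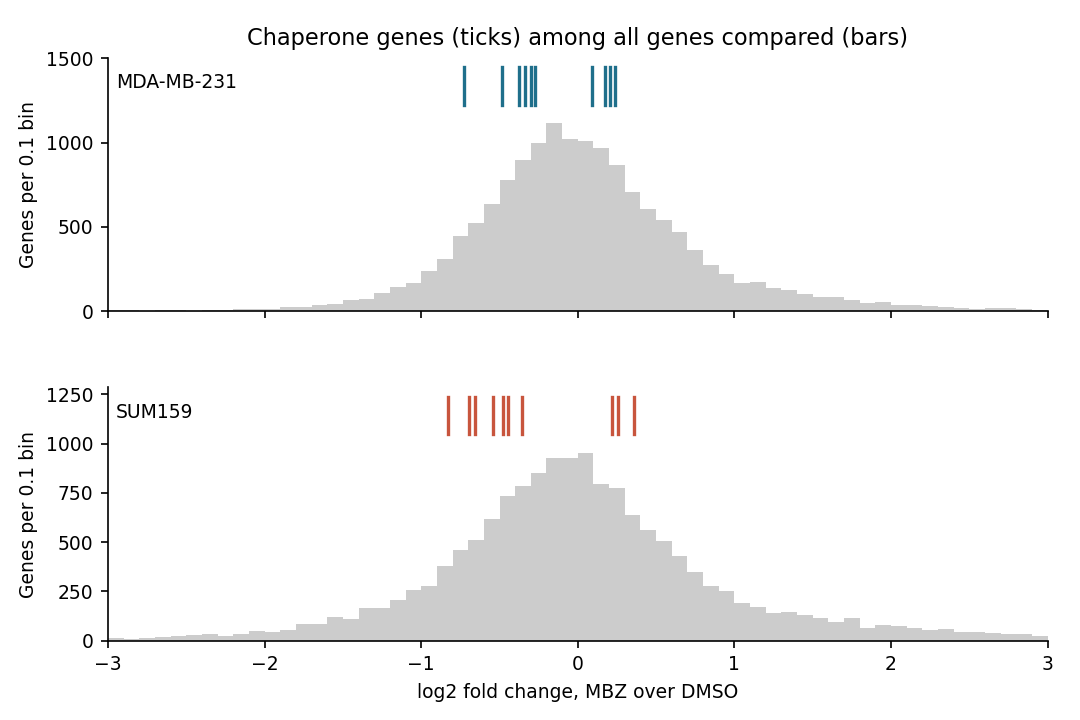
Coloured ticks give the log2 fold changes of the 10 chaperone genes above grey bars that count all genes compared, in bins of 0.1, for each line. Changes beyond 3 in either direction are not shown, and the ticks lie between -0.73 and 0.24 in the MDA-MB-231 line and between -0.83 and 0.36 in the SUM159 line, inside the bulk of all genes.

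The 10 chaperone genes were also ranked among all genes compared. From the lowest log2 fold change, BAG3 was at rank 1624 of 15142 in the MDA-MB-231 line, or percentile 10.7, and HSP90AA1, the highest of the 10 there, at percentile 66.3. In the SUM159 line HSPB1 was at rank 2214 of 15674, or percentile 14.1, and HSPH1 at percentile 70.5. Counting intervals lay below 0 for 6 of the 10 genes and above 0 for 3 in the MDA-MB-231 line, beside 35.3% and 30.5% of all genes, and below 0 for 7 and above 0 for 3 in the SUM159 line, beside 37% and 31.5%. The sign was the same in both lines for 7 of the 10, beside 56.3% of the 13733 genes compared in both. Opposite signs outside counting error were seen for 2 of the 10, HSPA1B and BAG3, beside 20% of those genes. With total counts HSPA1A joined them, making 3 of the 10 beside 19.1%, and in MDA-MB-231 the intervals of 4 lay below 0 and of 4 above, beside 19.8% and 48.6% of all genes. For SUM159 it was 7 below and 3 above, beside 22.3% and 49.1%.

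A test with a spread of its own was possible only for a response shared by the lines, by the quasi-likelihood test of edgeR over all genes with terms for line and treatment, so that the lines take the place of replicates. None of the 10 chaperone genes passed an adjusted p of 0.05 (Benjamini-Hochberg), beside 0.00621% of the 16100 genes tested, and none had an unadjusted p under 0.05, as 1150 genes did. DESeq2's Wald test called 0 of the 10 as well, with 45 genes called higher and 55 lower in all. The adjusted p of the 10 in edgeR's test ranged from 0.793 to 0.93. For HSPB1 the shared log2 ratio was -0.51 (standard error 0.35, adjusted p = 0.793), lower in both lines. DNAJB1 had -0.43 (standard error 0.29, adjusted p = 0.796), also lower in both. These values do not show that the transcripts were unaffected, as the standard errors of the 10 ran from 0.29 to 0.49 on the log2 scale.

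For HSPH1, HSP90AA1, HSP90AB1, HSPB1, DNAJB1 and BAG3 the lines differed without MBZ by more than MBZ and DMSO did within either line after TMM scaling. In the DMSO libraries, 3 of the 10 were at least 1.5-fold higher in the MDA-MB-231 line, beside 30.6% of all genes, and 3 at least 1.5-fold lower, beside 31%. With total counts it was 4 higher and 2 lower, beside 33.1% and 29.1%, as HSPH1 reached 0.61 and HSPA1B stood at -0.53. DNAJB1 was at 296 CPM in the MDA-MB-231 line and 163 in the SUM159 line, a log2 difference of 0.86 (interval 0.80 to 0.92). BAG3 was at 255 and 145 CPM, a difference of 0.81 (0.74 to 0.88), and HSP90AA1 at 1117 and 665 CPM, a difference of 0.75 (0.72 to 0.78). HSPB1 was lower in the MDA-MB-231 line, at 312 against 787 CPM, a log2 difference of -1.34 (interval -1.38 to -1.29). HSP90AB1, at 2016 against 3345 CPM, differed by -0.73 (-0.75 to -0.71) and HSPA1B, at 57.1 against 86.9 CPM, by -0.60 (-0.71 to -0.50). HSF1 and HSPA1A were not distinguishable between the lines at this depth, with intervals from -0.019 to 0.13 and from -0.26 to 0.078, after TMM scaling, and HSPA8 differed by -0.046 (interval -0.063 to -0.028). With total counts the difference was 0.031 for HSPA8, the opposite direction, and 0.13 for HSF1.

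The remaining chaperone system was read from 71 genes in 10 lists, which were put together with earlier results of these data known. Of these, 64 had enough counts in the MDA-MB-231 line, where 11 were at least 1.5-fold higher and 4 lower, and 67 in the SUM159 line, where 9 were higher and 4 lower. The shares of all genes past that fold were 18.3% upward and 15.8% downward for MDA-MB-231, and 21.5% and 21.7% for SUM159. The medians over the compared list genes were -0.017 and 0.085, beside -0.018 and -0.034 over all genes. The SUM159 counts include DNAJA4 and HSPB7, which passed the filter on low counts through the MBZ library alone and so had to differ, and with a mean of at least 100 counts 6 were higher and 3 lower. With scaling by total counts the split became 20 higher and 1 lower in the MDA-MB-231 line, beside 29.1% and 7.57% of all genes, and 19 higher and 3 lower in the SUM159 line, beside 32.8% and 12.8%.

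HSPA6 (ENSG00000173110, chromosome 1 from 161524540 to 161526894, 1 exon), the Hsp70 gene most tightly tied to stress, had the highest log2 ratio of the 5 cytosolic Hsp70, Hsp110 and Hsp90 relatives in both lines. It went from 22 to 84 counts in the MDA-MB-231 line, or from 0.969 to 4.47 CPM, and the log2 ratio was 2.20 (1.51 to 2.95). In the SUM159 line it went from 15 to 43 counts, or from 0.890 to 2.05 CPM, and the log2 ratio was 1.20 (0.33 to 2.16). HSPA6 was thus higher with MBZ in both lines at a level far under that of HSPA1A and HSPA1B. Its copy HSPA7 holds 338 of the 2206 150-base windows of HSPA6, and with the counts of both summed the log2 fold changes were 2.02 and 1.02. In edgeR's shared test HSPA6 reached 1.76 in log2 ratio with a standard error of 0.66 and an adjusted p of 0.655. Of the same list, HSPA2 was lower in the MDA-MB-231 line, at -1.42, and 0.015 in the SUM159 line, while HSPA14 was at 0.43 and 0.65, the former 0.69 with total counts.

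Among the J-domain proteins, DNAJB4 was at least 1.5-fold higher in MDA-MB-231, 1 of 7 compared, beside 18.3% of all genes. In SUM159 it was DNAJB2 and DNAJA4, 2 of 8 compared, beside 21.5%, the last through its MBZ library alone. DNAJB4 had a log2 fold change of 1.24 and 0.13 in the 2 lines, and DNAJB2 of 0.40 and 0.67. With total counts DNAJB2 passed 1.5-fold in MDA-MB-231 too, at 0.67, where 29.1% of all genes were then that much higher. DNAJA4 went from 4 to 23 counts in the SUM159 line, and the log2 ratio was 2.18 with an interval from 0.66 to 4.20. Small heat shock proteins were mostly near the floor. HSPB8, the partner that BAG3 joins to Hsp70, went from 62 to 220 counts in the MDA-MB-231 line, and the log2 ratio was 2.10 (1.69 to 2.53), and from 965 to 1459 in the SUM159 line, 0.28 (0.16 to 0.40). In the MDA-MB-231 line HSPB8 was thus higher where BAG3 was lower. CRYAB had 1 count in either MDA-MB-231 library and went from 45 to 28 counts in the SUM159 line, and the log2 ratio was -0.997 (-1.74 to -0.29). HSPB7 was at 0 counts in the MDA-MB-231 line and went from 3 to 20 in the SUM159 line, and the log2 ratio was 2.38 with an interval from 0.67 to 4.81.

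Of 10 Hsp90 co-chaperones, 2 were at least 1.5-fold lower in the MDA-MB-231 line, beside 15.8% of all genes. For SUM159 it was 1 higher and 1 lower, beside 21.5% and 21.7% of all genes. With total counts it was 2 higher and 0 lower for MDA-MB-231, beside 29.1% and 7.57% of all genes. FKBP5 and UNC45A then both stood at -0.52 there, and SUM159 had 3 higher and 1 lower, beside 32.8% and 12.8%. FKBP5, a co-chaperone of steroid receptors, was lower in each line, at a log2 ratio of -0.79 (interval -0.95 to -0.63) and -0.95 (-1.04 to -0.86). UNC45A, which folds myosin with Hsp90, was at -0.79 and -0.46, and the phosphatase PPP5C at -0.58 in the MDA-MB-231 line and 0.77 in the SUM159 line. The list of 8 exchange factors, BAG proteins and other Hsp70 co-chaperones includes ST13. In the SUM159 line it alone was at least 1.5-fold lower, at -1.22, beside 21.7% of all genes. ST13 stood at -0.15 in the MDA-MB-231 line, where it was 0.12 with total counts. Among the heat shock factors HSF4 was higher in the MDA-MB-231 line, from 63 to 126 counts, at 1.27, and 0.46 in the SUM159 line, or 0.76 with total counts. None of the 8 CCT chaperonin subunits, which fold actin and tubulin, passed 1.5-fold in either line after TMM scaling, with medians of -0.19 and 0.19. Total counts put 4 of the 8, TCP1, CCT2, CCT5 and CCT7, past 1.5-fold higher in SUM159, beside 32.8% of all genes. Prefoldin subunits hand tubulin and actin to CCT. Of the 6, PFDN2 and VBP1 were at least 1.5-fold higher in the SUM159 line, at 1.40 and 0.82, beside 21.5% of all genes. None was in the MDA-MB-231 line, beside 18.3%, and with total counts it was 4 of the 6 in SUM159, beside 32.8%.

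Chaperones of other compartments are given for comparison. Of 9 chaperones of the endoplasmic reticulum, 7 were at least 1.5-fold higher and none lower in the MDA-MB-231 line, beside 18.3% and 15.8% of all genes, with a median of 0.94 in log2 ratio. In SUM159 none was higher and 1 was lower, beside 21.5% and 21.7% of all genes, with a median of -0.075. The lower gene was CANX, the lectin chaperone calnexin, at 0.66 for MDA-MB-231 and -0.62 for SUM159, the single listed gene past 1.5-fold in opposite directions after TMM scaling, which is named here after its values were seen. With total counts CANX stood at -0.32 in SUM159 and no listed gene was past 1.5-fold in opposite directions. HSPA5, the Hsp70 of that compartment, went from 17159 to 56104 counts in the MDA-MB-231 line, and the log2 ratio was 1.98, and from 8954 to 13563 in the SUM159 line, 0.28. DNAJB9 was at 2.47 and 0.069, HYOU1 at 1.57 and 0.19 and DNAJC3 at 0.94 and -0.22, the last of which was 0.081 with total counts. Of 6 mitochondrial chaperones, TRAP1 was lower in the MDA-MB-231 line at -0.78, or -0.51 with total counts, and at 0.21 in the SUM159 line, and GRPEL1 was higher in the SUM159 line at 0.64 and at -0.14 in the MDA-MB-231 line, where it was 0.12 with total counts. The median of this list was -0.085 and 0.17. Whether any of these lists differed from all genes beyond chance was not tested.

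**Figure D5:**
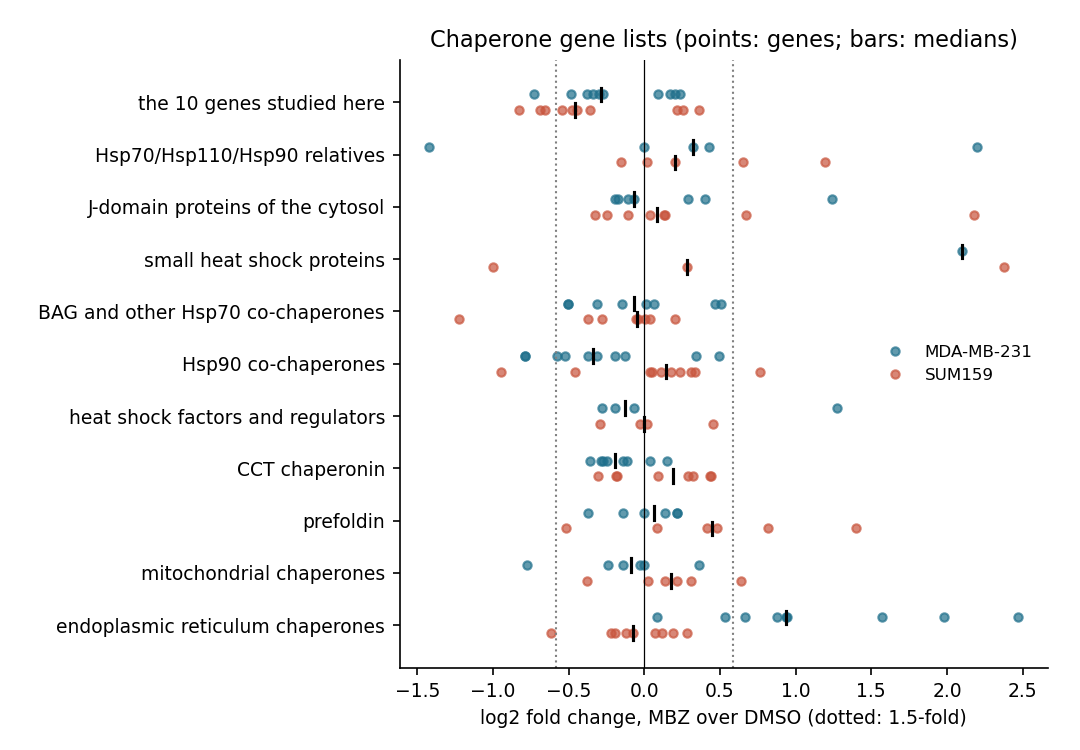
log2 fold change of each gene with a mean of at least 10 counts, by chaperone list and cell line, with short black bars at the list medians and dotted lines at 1.5-fold. Chaperones of the endoplasmic reticulum lie to the right in the MDA-MB-231 line, with a median of 0.94, and around 0 in the SUM159 line, while the medians of the 10 genes studied here are at -0.29 and -0.46.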

How the data were processed

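The authors aligned paired 150-base reads (STAR 2.5, GRCh38, at most 2 mismatches), assigned them to genes in the union mode of HTSeq 0.6.1 and deposited raw counts. Strand setting and annotation release are not given in the sources used here. All 4 columns were used. Symbols were matched by Ensembl identifier for 58207 of 58735 genes. Places and lengths are from GENCODE release 44.

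With 1 library per condition, log2 ratios of MBZ to DMSO came from edgeR 4.0.16 under R 4.3.3 (TMM within a line, prior count 0.125), without a test. Calls needed a 1.5-fold change and a mean of at least 10 counts. Intervals cover counting error only, since amplified reads that carry no molecular identifier are not independent, and 3 counts, the limit of a count of 0, are 0.120 to 0.175 CPM. For shared responses, the main test was edgeR's quasi-likelihood test (line and treatment, filterByExpr, TMM, all genes, Benjamini-Hochberg), with DESeq2 1.42.0 as an alternative, beside other scalings, folds and count filters. Ratios of genes and the sum of HSPA6 and HSPA7 were chosen after seeing the data. Differences in response between lines are given with normal counting intervals, and differences between the DMSO libraries with Clopper-Pearson intervals. Functions were tested on simulated counts. The members and lists were chosen with earlier results of these data known. All 10 members are named, and from each list up to 4 genes changed 1.5-fold in either line. Transcript windows were compared after blastn 2.17.0.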

Additional observations from a re-analysis of the deposited data

Results flagged for a closer look

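Of the 32 genes named by rule, 6, among them 2 of the 10 chaperone genes, lay above 0 in 1 line and below 0 in the other with intervals that exclude 0. Of all genes compared in both lines 20% did so, and 22 of the 64 listed genes compared in both, or 34.4%. DNAJA4, HSPB7 and CRYAB, named among the 32, had too few counts in MDA-MB-231 to be compared there. With 1 library per condition the differences were not tested between cultures, and their intervals cover counting error only. On the log2 scale the response in SUM159 cells minus that in MDA-MB-231 cells was 0.98 for BAG3 (interval 0.88 to 1.08), the co-chaperone of Hsp70, and -0.86 for HSPA1B (-1.02 to -0.71), where reads shared with HSPA1A are uncertain. Outside the 10 genes it was 1.34 for PPP5C (1.23 to 1.46), 0.99 for TRAP1 (0.85 to 1.13), 0.78 for GRPEL1 (0.62 to 0.95) and -1.16 for DNAJC3 (-1.34 to -0.99). With total counts GRPEL1 was at 0.12 in MDA-MB-231 and DNAJC3 at 0.081 in SUM159, so neither kept its opposite signs. CANX, which the naming rule left out and which was picked after its values were seen, had -1.28 (-1.32 to -1.24), and with total counts it was no longer 1.5-fold lower in SUM159.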

How the results depend on the processing

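For MBZ over DMSO, none of the 10 genes changed its sign under the 3 other scalings, but with total counts the intervals of HSF1 and HSPB1 in MDA-MB-231 included 0 and that of HSPA1A no longer did. The DMSO difference of HSPA8 between lines turned from -0.046 to 0.031 with total counts. Calls of the 10 genes depended on the threshold and scaling. With total counts alone, 0 were lower in either line, beside 7.57% of all genes in MDA-MB-231 and 12.8% in SUM159. In SUM159 cells 1 was higher, beside 32.8%. At 2-fold, 0 were lower in either line. By counting interval alone, MDA-MB-231 had 3 higher and 6 lower, beside 30.5% and 35.3% of all genes. SUM159 had 3 higher and 7 lower, beside 31.5% and 37%. Between the DMSO libraries at 2-fold, MDA-MB-231 was higher for 0 and lower for 1. With total counts at 1.5-fold it was higher for 4 and lower for 2, beside 33.1% and 29.1% of all genes. Of the listed genes, total counts gave 20 higher and 1 lower for MDA-MB-231, beside 29.1% and 7.57% of all genes. For SUM159 they gave 19 higher and 3 lower, beside 32.8% and 12.8%. The 2-fold threshold gave 7 higher and 1 lower for MDA-MB-231 and 4 higher and 1 lower for SUM159. The share of all genes past 2-fold was not computed, so the 2-fold counts stand without it. The shared test gave 0 of the 10 in every alternative, while over all genes edgeR called 153 higher and 145 lower once every gene with at least 1 count was tested. No block on the replicate number could be fitted, since all 4 libraries carry number 1. The shared test compares MBZ with DMSO within lines through its cell line term. Leaving out a library leaves no residual spread and was not run.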
